A study of Mus musculus with 7 samples.

Results

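The tripartite motif (TRIM) family of ubiquitin ligases was examined in CD4 T cells sorted from mouse lung tumours. Members were chosen by name, as protein-coding genes whose symbol is Trim followed by a number and at most 1 letter from a to d. The rule found 68 of the 21846 protein-coding genes in the count table, which holds 55364 genes in all. The family was taken up because Trim56 was already known to be far lower in the Cre group of these libraries, so the values of Trim56 are given as a description with no test. The other members were selected on symbol alone, and their differences between groups were tested.

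TRIM proteins carry a RING domain, 1 or more B-box zinc fingers and a coiled coil, followed by a C-terminal part that differs between subfamilies. The RING domain receives ubiquitin from an E2 conjugating enzyme and passes it to a target chosen largely by the C-terminal part, most often a PRY-SPRY domain. Many members are induced by interferon and either restrict viruses or adjust signalling from RIG-I, MDA5, cGAS and Toll-like receptors. Others repress transcription on chromatin, and some act in muscle, neurons or germ cells.

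All mice were C57BL/6 animals over 8 weeks old that bore orthotopic lung tumours, carried the loxP-flanked I-AbF/F allele of an MHC class II chain and received tamoxifen. The Control group (5 libraries) had the I-AbF/F genotype with no Cre, and the Cre group (2 libraries) was I-AbF/F Col1a2-cre. The Col1a2 promoter drives Cre in fibroblasts, so the deletion was not aimed at the cells that were sequenced, which were sorted as CD45+CD3+CD4+. The series' design text calls the libraries biological replicates. Libraries were made for 3′ UTR RNA-seq, and reads were counted in regions at or near transcript ends. The Control libraries held between 1484655 and 1724346 counts, and the Cre libraries 1929899 and 1449739.

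The cells carried the markers of their sort. Summed T cell markers, in CPM (counts scaled to a common library total), ran from 2528 to 3368 in Control and were 3243 and 1852 in the Cre libraries. Lck held a large part, with a Control mean of 1374 CPM beside 2855 CPM for the sum. Of the 7 markers, 4 were fitted lower in Cre and 3 higher. Cd3e had 146, 51, 307, 405 and 149 counts across Control and 116 and 3 across Cre. Cd4 had 363, 409, 738, 605 and 330 counts across Control, against 731 and 567 in Cre. Markers of most other cell types were low but not all absent. Those of fibroblasts were not low, with a summed Control mean of 306.5 CPM beside 299.6 CPM for Cd4. The B cell gene Ms4a1, the macrophage gene Adgre1, the endothelial gene Cdh5 and the pericyte gene Pdgfrb had no count in any library. Endothelial markers nonetheless summed to between 17.2 and 68.7 CPM over Control, with 66.3 and 6.21 CPM in Cre, nearly all from Pecam1, epithelial markers to between 0.614 and 25.2 CPM, with 25.4 and 1.38, mostly from Cdh1, and natural killer cell markers to at most 16.2 CPM, from Klrb1c. B cell and CD8 T cell markers summed to at most 1.19 and 9.49 CPM in any library. The 7 fibroblast markers summed to between 159.6 and 575 CPM across Control, with 275.7 and 53.1 CPM in Cre. Among them Col1a2, a collagen gene, had 179, 50, 242, 40 and 336 counts across Control and 7 and 2 across Cre. Col1a1 had 103, 146, 124, 188 and 122 counts across Control and 84 and 6 across Cre. In CPM both Cre libraries lay below all of Control for Col1a1 and Col1a2. In the same list Dcn had 76, 7, 112, 115 and 257 counts over the Control libraries, against 364 and 41 in Cre, and Col3a1 had 26, 34, 27, 22 and 85, against 35 and 26, so the list did not move as 1. The myeloid markers summed to between 8.3 and 48 CPM across Control, with 0 and 4.83 CPM in Cre. Genes of all kinds were detected less widely in the Cre libraries. Protein-coding genes with at least 1 count made up 51.6, 37.3, 38.1, 37.1 and 39.4% of all coding genes in Control and 32.6 and 28.3% in Cre. The part of these differences in the TRIM values below was not tested.

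Of the 68 TRIM genes, 41 had at least 1 count and 27 had none in any of the 7 libraries. Those at 0 included the muscle ligases Trim54, Trim55, Trim63 and Trim72, the Trim43a, Trim43b and Trim43c genes, and several members with immune roles elsewhere, among them Trim6, Trim31 and Trim38. Where no count was found, up to 3 counts remain possible, or 1.55 to 2.07 CPM in a single library, a limit for counting error only. Another 8 members had 1 or 2 counts over all libraries together. Counts were found in all 5 Control libraries for 18 members and in all 7 libraries for 12. Control libraries held 34, 29, 23, 24 and 25 members, and Cre libraries held 23 and 16. At an equal total of 1449739 counts, 33.6, 28.9, 23.0, 23.8 and 24.8 members would be found in Control and 22.7 and 16.0 in Cre. The second Cre library was therefore the one with the fewest TRIM genes, while the first lay just under the Control range.

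TRIM transcripts in these sorted cells came from few genes. The 12 members with a Control mean of at least 50 CPM held 86.7% of all TRIM counts in Control. They were Trim56, Trim35, Trim12a, Trim25, Trim59, Trim12c, Trim30a, Trim26, Trim11, Trim65, Trim34a and Trim27. By subfamily, 10 of these 12 were listed in the PRY-SPRY group, as were 38 of all 68 members and 16 of the 25 tested. The domain itself was not checked in each protein. The 5 most counted members of each library held 56.3 to 65.5% of its TRIM counts in Control, 56.5% in Cre replicate 1 and 85.2% in Cre replicate 2. In that last library Trim35 alone held 35.7%.

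**Figure D1:**
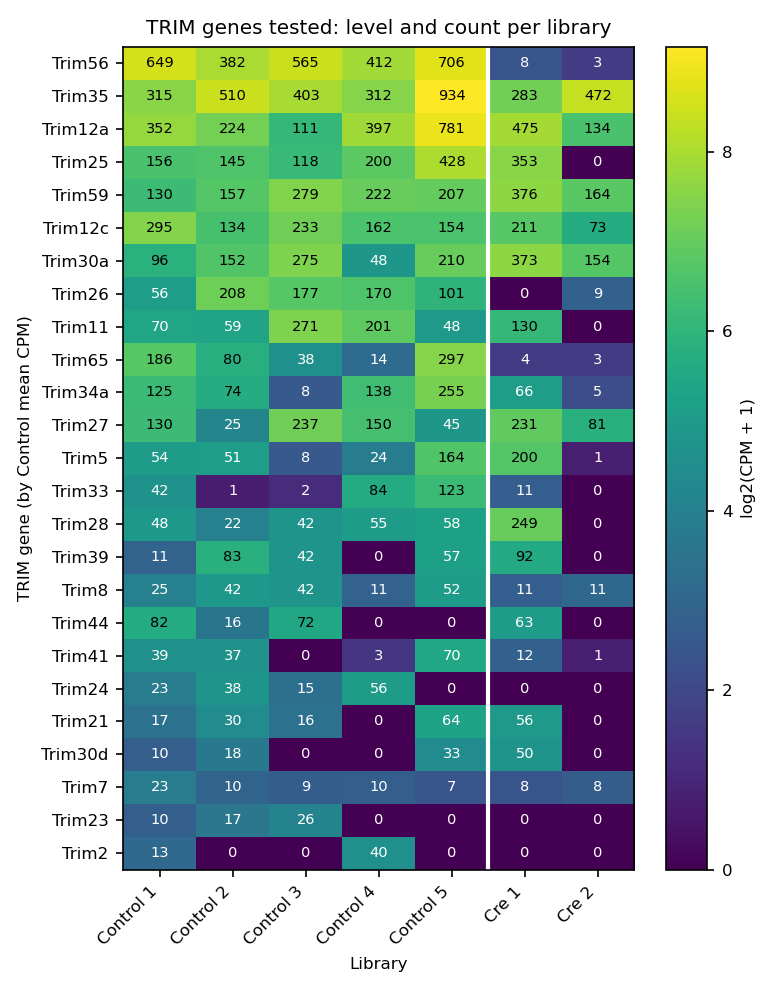
Level of the 25 tested TRIM genes (rows, by mean Control CPM) in the 5 Control and 2 Cre libraries (columns); colour is log2(CPM + 1) and the printed number is the count. Trim56 goes from 382 or more counts in every Control library to 8 and 3 in Cre, and 11 genes have no count in Cre replicate 2.

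Genes differ in the length over which they were counted, so levels between members were compared as CPM per kilobase of counted region. Counts in 3′ UTR libraries need not grow with region length, so the order depends on the scale. By CPM alone Trim56 was highest in Control at 332.5 ± 83.1, before Trim35 at 306.6 ± 163 and Trim12a at 227.6 ± 154.3. Per kilobase Trim12a, a mouse relative of the retroviral restriction factor TRIM5, was highest in Control at 134.2 ± 91 CPM per kb (SD, n = 5). Trim35 followed at 100.3 ± 53.4, Trim34a at 70.8 ± 53.5, Trim59 at 53.7 ± 15.2, Trim12c at 52.6 ± 16.7 and Trim56 at 47.1 ± 11.8 CPM per kb. Over all libraries an intronic window of 249 bases held 58.2% of the counts of Trim12a, and another held 43.1% of those of Trim35. Their levels per kilobase therefore rest in part on these windows. Trim56 held a high share of raw TRIM counts, 14.5 to 21.6% in Control, but was the sixth per length because its counted region spans 7061 bases. From the seventh to the twelfth place stood Trim26, Trim30a, Trim25, Trim11, Trim28 and Trim27, from 35.2 ± 16.5 to 22.2 ± 16.2 CPM per kb. The remaining 13 tested members ran from 19.4 ± 15.5 CPM per kb for Trim24 to 1.2 ± 1.96 for Trim2. Every neighbouring pair in this order had overlapping Control ranges, so no neighbours in it differed beyond their spread.

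**Figure D2:**
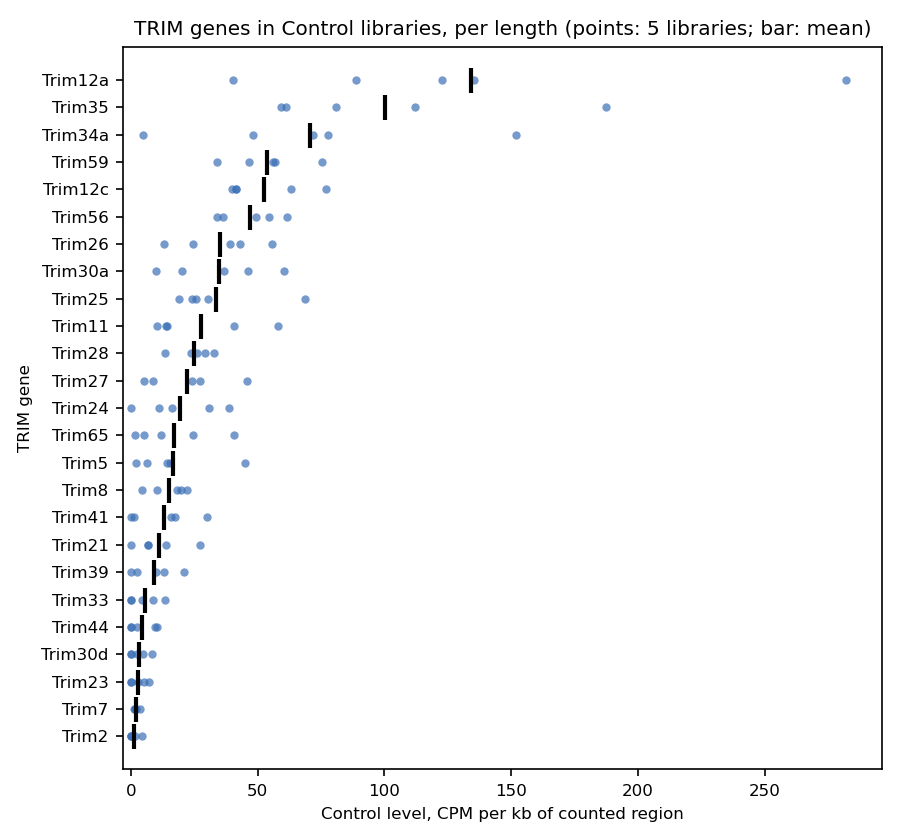
Control level of the 25 tested TRIM genes in CPM per kb of counted region, with a point for each of the 5 Control libraries and a bar at their mean. Trim12a and Trim35 have the highest means, and the points of each gene overlap those of the next in the order.

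Trim56 ubiquitinates cGAS and STING and so takes part in sensing of DNA in the cytosol. In Control replicates 1 to 5 it had 649, 382, 565, 412 and 706 counts, against 8 in Cre replicate 1 and 3 in Cre replicate 2, and this order of libraries is used throughout. As a level this was 385, 257.3, 347.5, 238.9 and 433.7 CPM across Control and 4.15 and 2.07 CPM across Cre. Both Cre libraries lay far under the lowest Control library, and the fitted log2 difference (Cre minus Control) was -6.67 ± 0.68 (SE). All counts fell in 1 region, chr5:137105395-137112455 on the minus strand (mm10), of which 6812 of 7061 bases are 3′ UTR and the last 249 lie past the annotated gene end. Only 0.164% of the 50-base words of this region that lie in annotated transcripts occur in transcripts of another gene. The share of all TRIM counts that Trim56 held was 0.243 and 0.227% in the Cre libraries. In bulk RNA, fewer cells that express a gene and less RNA of it per cell cannot be told apart.

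The comparison of Cre with Control asks whether T cells in the tumour express other genes once fibroblasts lose MHC class II. Among the TRIM genes not chosen for their difference, none passed it. In edgeR's quasi-likelihood test with Benjamini-Hochberg adjustment over all 9854 tested genes, 0 of the other 24 tested members had an adjusted p under 0.05, and their adjusted p-values ran from 0.367 to 0.999. Across all genes this test called 0.0101%, a single gene, the one whose difference led to the choice of the family, so nothing is read from that call. At an unadjusted p under 0.05 it gave 3 lower members of 24 and 0 higher ones, beside 10.2% and 1.41% of all tested genes, so that the members were near the background. With 2 Cre libraries this does not show that the 24 levels were alike, since the standard errors of their log2 differences ran up to 3.66 for Trim2. P-values here measure the spread between these libraries.

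Other rules gave 2 more members, Trim26 and Trim65, always lower in Cre. DESeq2 called these 2 of the 21 members it gave an adjusted p (9.52%), beside 7.23% of all genes called lower in Cre. The authors' deposited table has an FDR under 0.05 for the same 2 of 40 members (5%), beside 3.64% of its genes with a lower value in Cre. Both Cre libraries lay below every Control library for these 2 of 24 tested members (8.33%), beside 10.9% of all tested genes. No member had both Cre libraries above every Control library, which 4.05% of all tested genes did. None of these shares is far from that of genes at large. Trim26 and Trim65 passed the count filter only because of their Control counts, so their calls as lower in Cre are given as a description. In limma voom 0 members passed. With no adjustment, a p under 0.05 was reached by 1 lower member of the 24 and by 0 higher ones, beside 7.9% and 3.57% of all tested genes. With library weights 0 passed and the same counts of 1 and 0 stood beside 3.07% and 2.53%.

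Trim26, a ligase that acts on the transcription factor IRF3 and on other parts of the interferon response, had 56, 208, 177, 170 and 101 counts in Control, with 0 and 9 in the Cre libraries. Its level was 33.2, 140.1, 108.9, 98.6 and 62 CPM in the Control libraries, against 0 and 6.21 in Cre. The lowest Control library thus stood above both Cre libraries, and the Control libraries varied widely among themselves. The log2 difference was -4.84 ± 1.55 (edgeR adjusted p = 0.367, DESeq2 adjusted p = 0.0021). In the authors' deposited table the log2 fold change of Trim26 is -4.49 with an FDR of 0.00352. Most of its counts, 96.9%, came from the last counted region, chr17:36857628-36859647 on the plus strand, which holds the end of the coding sequence and the 3′ UTR.

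Trim65, a ligase for the RNA sensor MDA5, had 186, 80, 38, 14 and 297 counts across Control and 4 and 3 across Cre. This was 110.3, 53.9, 23.4, 8.12 and 182.5 CPM in Control and 2.07 CPM in both Cre libraries. Control replicate 4 came close to the Cre libraries, so the groups were separate by a narrow gap at their nearest points. The log2 difference was -5.12 ± 1.64 (edgeR adjusted p = 0.367, DESeq2 adjusted p = 0.00339), and the authors' deposited table gives -4.83 with an FDR of 0.00444. With each library left out in turn, DESeq2 kept Trim26 at adjusted p-values of 0.00287 to 0.0145 and Trim65 at 0.00066 to 0.0318. The edgeR adjusted p over the same 7 fits stayed at 0.0825 or more for Trim26 and at 0.208 or more for Trim65. The call on these 2 genes therefore rests on the tool.

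**Figure D3:**
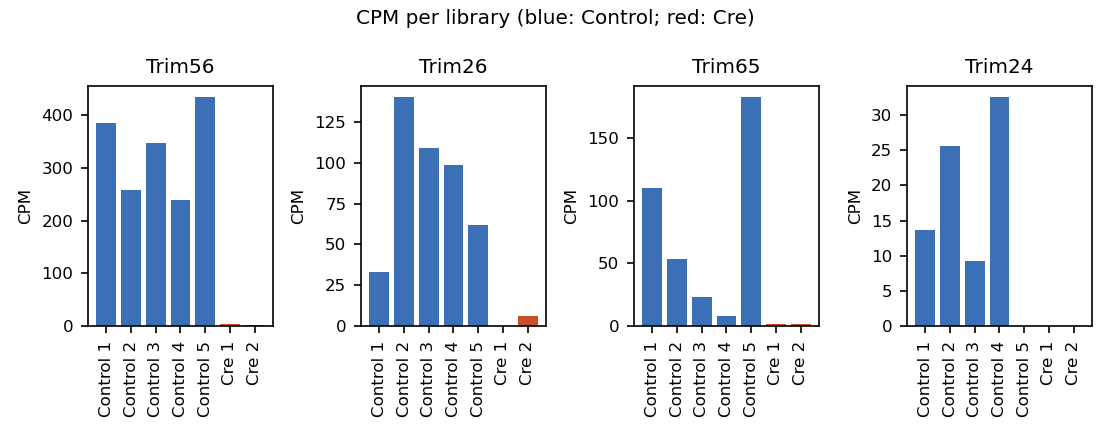
CPM in each library for Trim56, Trim26, Trim65 and Trim24 (blue bars, Control replicates 1 to 5; red bars, Cre replicates 1 and 2), each panel with its own scale from 0. Cre bars reach at most 6.21 CPM in any panel, and Control varies from 8.12 to 182.5 CPM for Trim65 and from 0 to 32.5 CPM for Trim24.

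Trim24, Trim28 and Trim33 are the chromatin members, transcriptional corepressors with a PHD finger and a bromodomain; the fourth member of this kind, Trim66, had no count. Trim24 had 23, 38, 15, 56 and 0 counts in Control and 0 in both Cre libraries. Control replicate 5 was also at 0, so the groups overlapped. Against the limit of 3 counts over both Cre libraries, 0.888 CPM, the pooled Control level of 16.2 CPM makes Trim24 at least 18.2-fold lower in Cre (edgeR adjusted p = 0.422, DESeq2 adjusted p = 0.0745). Without Control replicate 4 the bound was 13.3-fold. Such a bound covers counting error only and not the spread between libraries, and Trim24 passed the count filter on its Control counts alone. With a library left out, Trim24 passed in DESeq2 in 1 of the 7 fits, that without Control replicate 5 (adjusted p = 0.027), and 3 fits gave it no adjusted p.

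Trim28, the partner of KRAB zinc finger proteins also known as KAP1, split the Cre group. It had 48, 22, 42, 55 and 58 counts in Control, 249 in Cre replicate 1 and 0 in Cre replicate 2. Its Control libraries were among the steadiest of the family at 27.3 ± 7.9 CPM, while the Cre libraries stood at 129 and 0 CPM on either side of them (log2 difference 1.27 ± 1.51, edgeR adjusted p = 0.806). Trim33, which acts on SMAD4 in TGF-beta signalling, had 42, 1, 2, 84 and 123 counts in Control, with 11 and 0 in the Cre libraries (-3.31 ± 2.39, edgeR adjusted p = 0.593). The 3 genes together summed to 67, 41.1, 36.3, 113.1 and 111.2 CPM across Control, with 134.7 and 0 CPM in Cre.

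Such a split between the Cre libraries was frequent. Of the 25 tested members, 11 were at 0 in Cre replicate 2 (44%, beside 33.6% of all tested genes) and 4 in Cre replicate 1 (16%, beside 25%). In Control, 0, 1, 3, 5 and 4 tested members were at 0 (0, 4, 12, 20 and 16%), beside 1.14, 15.7, 13.8, 16.1 and 12.3% of all tested genes. There were 8 members with no count in Cre replicate 2 that had counts in Cre replicate 1, and 1 member, Trim26, with the reverse. This split was not counted over all tested genes, so it is not read as a trait of TRIM genes. The TRIM genes at 0 in both Cre libraries were 3 (12%, beside 13.7% of all tested genes).

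Trim25, the ligase that ubiquitinates the RNA sensor RIG-I, showed it at the highest level. It had 156, 145, 118, 200 and 428 counts in Control, 353 in Cre replicate 1 and 0 in Cre replicate 2. In CPM this was 92.5, 97.7, 72.6, 116 and 262.9 in Control and 182.9 and 0 in Cre. Cre replicate 1 lay within the Control range, and Cre replicate 2 lay below all of it (log2 difference -0.44 ± 1.27, edgeR adjusted p = 0.942). With Cre replicate 1 left out, the fit to the single remaining Cre library gave -10.66 (edgeR adjusted p = 0.0194), and without Cre replicate 2 it gave 0.58.

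Trim11, a ligase involved in clearing misfolded proteins, had 70, 59, 271, 201 and 48 counts in the Control libraries, against 130 and 0 in Cre. Cre replicate 1 was inside the Control range of 29.5 to 166.7 CPM and Cre replicate 2 outside it (-1.19 ± 1.48, edgeR adjusted p = 0.821). Trim21, the cytosolic receptor for antibody-coated particles, had 17, 30, 16, 0 and 64 counts across Control and 56 and 0 across Cre. Trim39 had 11, 83, 42, 0 and 57 counts in Control, with 92 and 0 in the Cre libraries, Trim44 had 82, 16, 72, 0 and 0 and then 63 and 0, and the groups overlapped for all 3 of these genes. Their edgeR adjusted p-values were 0.997, 0.999 and 0.975.

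Trim35 and Trim59 were carried by both Cre libraries at about Control levels. Trim35 had 315, 510, 403, 312 and 934 counts in the Control libraries, against 283 and 472 in Cre. It stood at 186.8, 343.5, 247.8, 180.9 and 573.8 CPM in Control and at 146.6 and 325.6 CPM in Cre, which overlapped (-0.36 ± 0.53, edgeR adjusted p = 0.862). Trim59, which is anchored in the endoplasmic reticulum membrane, had 130, 157, 279, 222 and 207 counts across Control and 376 and 164 across Cre. Its 194.8 CPM in Cre replicate 1 was above the highest Control library, at 171.6 CPM, and its 113.1 CPM in Cre replicate 2 was among them (0.36 ± 0.55, edgeR adjusted p = 0.872). Trim27, which restrains T cell receptor signalling through a lipid kinase and a potassium channel, had 130, 25, 237, 150 and 45 counts in Control, with 231 and 81 in the Cre libraries. Both Cre libraries of Trim27, at 119.7 and 55.9 CPM, lay within the Control range of 16.8 to 145.7 CPM (0.31 ± 0.93, edgeR adjusted p = 0.942).

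**Figure D4:**
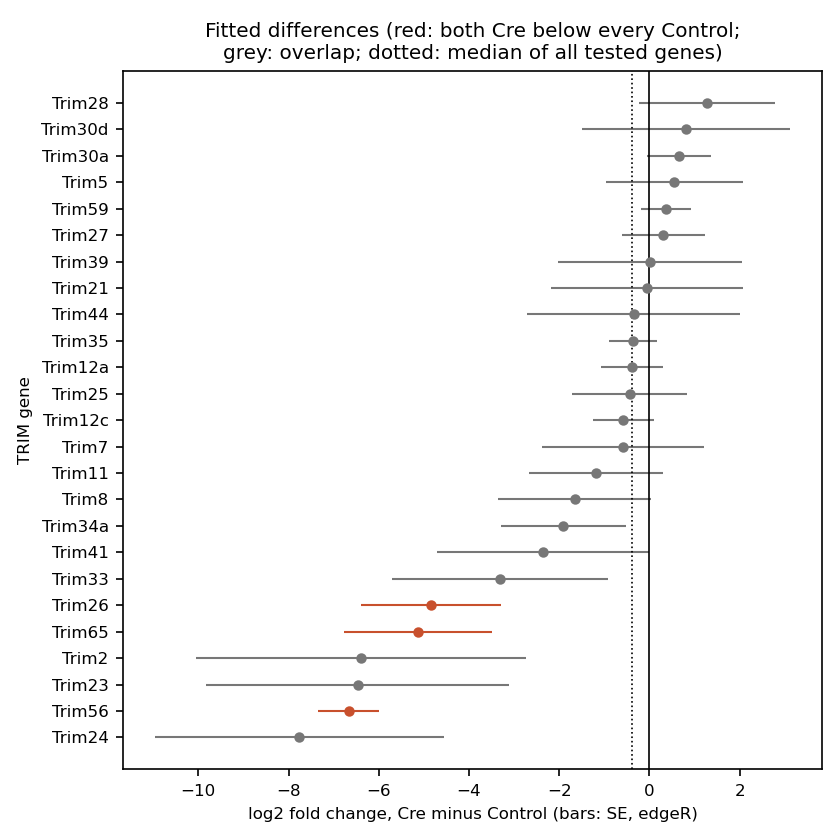
Fitted log2 difference, Cre minus Control, for the 25 tested TRIM genes (points; bars are the SE from edgeR), red where both Cre libraries were below every Control library. Trim56, Trim26 and Trim65 are red, and the dotted line marks the median of all 9854 tested genes, -0.39.

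Over the 24 tested members without Trim56, 17 had a lower fitted value in Cre (70.8%) and 7 a higher one, with a median log2 difference of -0.51. Among all tested genes 60.1% were lower, with a median of -0.39, which became -0.29 with DESeq2 size factors and -0.49 with upper-quartile factors. The tested members had to reach a minimum count to be tested, so these counts are a description of them. Summed over all 68 members, TRIM counts came to 1784, 1771, 1840, 1582 and 2952 CPM in the Control libraries, against 1706 and 911.9 in Cre. Without Trim56 the sum was 1399, 1514, 1493, 1343 and 2518 CPM across Control and 1702 and 909.8 across Cre. Cre replicate 1 was then above 4 of the 5 Control libraries and Cre replicate 2 below all of them. The group means without Trim56 were 1653 ± 488.3 CPM (SD, n = 5) and 1306 ± 560.2 CPM (SD, n = 2).

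A cluster on chromosome 7, in which several genes respond to interferon, was the main genomic group of TRIM genes with counts. It holds Trim5, Trim6, Trim12a, Trim12c, Trim30a, Trim30b, Trim30c, Trim30d, Trim34a and Trim34b, and 6 of the 10 were tested. Its summed level was 552.8, 441.2, 390.5, 446 and 981.1 CPM in Control, with 712.5 and 253.1 in the Cre libraries. Cre replicate 1 was above 4 of the 5 Control libraries and Cre replicate 2 below all of them, with 3 tested genes fitted lower, 3 higher and a median log2 difference of 0.08. These 6 are relatives of human TRIM5 and TRIM34, which act on incoming retroviral capsids, and of Trim30a, a brake on NF-kappaB signalling.

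Trim12a had 352, 224, 111, 397 and 781 counts in the Control libraries, against 475 and 134 in Cre. Both Cre levels, 246.1 and 92.4 CPM, lay within the Control range of 68.3 to 479.8 CPM (-0.39 ± 0.68, edgeR adjusted p = 0.89). Trim12c had 295, 134, 233, 162 and 154 counts across Control and 211 and 73 across Cre. Its Cre levels were 109.3 and 50.4 CPM, the second of them below the lowest Control library at 90.3 CPM (-0.58 ± 0.67, edgeR adjusted p = 0.799). Trim30a had 96, 152, 275, 48 and 210 counts in Control, with 373 and 154 in the Cre libraries. Its Cre levels were 193.3 and 106.2 CPM, the first above the highest Control library at 169.1 CPM (0.66 ± 0.71, edgeR adjusted p = 0.777).

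Trim34a had 125, 74, 8, 138 and 255 counts in the Control libraries, against 66 and 5 in Cre. Its level spanned 4.92 to 156.7 CPM in Control and was 34.2 and 3.45 CPM in Cre, so the groups overlapped (-1.91 ± 1.38, edgeR adjusted p = 0.594). Trim5 had 54, 51, 8, 24 and 164 counts across Control and 200 and 1 across Cre, and Trim30d had 10, 18, 0, 0 and 33 and then 50 and 0. Each had its highest count of all libraries in Cre replicate 1 and almost none in Cre replicate 2 (edgeR adjusted p = 0.94 for Trim5 and 0.941 for Trim30d). Counts within this cluster are uncertain where copies share sequence. Of the 50-base words in the counted regions, 21.6% of those of Trim12c and 20.3% of those of Trim5 also occur in another gene's transcripts, as do 12.5% for Trim34a and 7.75% for Trim30a.

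The same kinship shows in the promoters, and the sequences are given here because 6 of the cluster's 10 genes share an interferon-type motif. In RefSeq's GRCm38.p6 promoters (250 bases before the start to 50 after), the core GAAANNGAAA of the interferon-stimulated response element was searched on both strands. It was present for 9 of the 53 members that have a promoter in the table (17%), beside 1079 of all 27025 genes (3.99%). The 9 were Trim2, Trim5, Trim12a, Trim12c, Trim21, Trim26, Trim30a, Trim30d and Trim34a, all of them among the 25 tested members. In the cluster, Trim6, Trim30b, Trim30c and Trim34b had no match in this window. The match of Trim2 is not printed, since it lies outside the cluster and Trim2 had few counts. Each line below is 30 bases written 5′ to 3′ along the gene's strand, with the match, or its reverse complement, in capitals.
Trim5: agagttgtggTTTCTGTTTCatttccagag
Trim12a: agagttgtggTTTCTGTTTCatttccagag
Trim12c: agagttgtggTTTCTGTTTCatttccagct
Trim34a: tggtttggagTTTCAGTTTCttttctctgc
Trim30a: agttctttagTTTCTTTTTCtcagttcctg
Trim30d: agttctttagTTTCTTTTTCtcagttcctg
Trim21: agaggaaactGAAAGTGAAAtttggactgc
Trim26: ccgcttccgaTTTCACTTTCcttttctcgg

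In the mouse genome these lie at chr7:104288136-104288165 (Trim5), chr7:104315466-104315495 (Trim12a), chr7:104353359-104353388 (Trim12c), chr7:104465210-104465239 (Trim30a) and chr7:104507871-104507900 (Trim30d), all on the minus strand. The windows of Trim34a, chr7:104244457-104244486, and Trim26, chr17:36836976-36837005, are on the plus strand, and that of Trim21, chr7:102565444-102565473, is on the minus strand. The windows of Trim5 and Trim12a were identical over all 30 bases, as were those of Trim30a and Trim30d, and Trim12c shared 28 of 30 bases with Trim12a. Trim21 and Trim26 each had a second, overlapping match. Trim30a had a second match in another of its promoters, at chr7:104446104-104446133, which is not printed and shared 26 of 30 bases with the window of Trim30d. Genes with near-identical windows did not have the same values: Trim12a had 475 and 134 counts in the Cre libraries and Trim5 had 200 and 1. A match to these letters describes the sequence and is not evidence of a bound site.

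Counts were also examined by region, since 14 members had more than 1 counted region. Regions with bases past the last coding base, that is 3′ UTR, held 82.5% of all TRIM counts, and windows of at most 249 bases with neither coding nor 3′ UTR bases held 13.8%. In an edgeR fit per region, 0 of the 27 tested TRIM regions other than that of Trim56 had an adjusted p under 0.05, beside 0.00847% of all 11801 regions. The lowest adjusted p was 0.407. At an unadjusted p under 0.05, 5 of the 27 were lower and 0 higher, beside 9.77% and 1.18% of all tested regions. The lower share was thus above that of all regions, and this difference in shares was not tested.

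Within Trim35 the 2 main regions had different values. An intronic window at chr14:66298123-66298371 on the plus strand, just past the end of an annotated short transcript, had 164, 200, 170, 98 and 699 counts in Control, with 0 and 62 in the Cre libraries. It held 31.4 to 74.8% of the gene's counts in Control and 0 and 13.1% in Cre, without overlap (log2 difference -2.98 ± 1.37, edgeR adjusted p = 0.407). How many of all tested regions separate the groups was not counted, so the lack of overlap is not read as a trait of this window. The 3′ UTR region at chr14:66309337-66311673 had 147, 309, 233, 214 and 235 counts in the Control libraries, against 283 and 410 in Cre (0.57 ± 0.52, edgeR adjusted p = 0.676). The sum over the gene, which is fitted lower in Cre, and its most counted region, which is fitted higher at 0.58, thus had opposite signs.

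Trim59 had a like arrangement. A region of 476 bases at chr3:69043313-69043788 on the minus strand had 18, 13, 80, 54 and 64 counts in Control and 0 in both Cre libraries, below all of Control (unadjusted p = 0.00947, edgeR adjusted p = 0.407). This region passed the count filter on its Control counts alone, and the share of all tested regions that lie so was not counted. Its 3′ UTR region at chr3:69035039-69036836 had 112, 144, 199, 168 and 143 counts across Control and 376 and 164 across Cre (0.69 ± 0.60, edgeR adjusted p = 0.659). Trim12a divided its counts between an intronic window, chr7:104310830-104311078, with 252, 103, 56, 149 and 626 in Control and 253 and 0 in Cre, and its 3′ UTR region, chr7:104299645-104300385, with 100, 121, 55, 248 and 153 in Control and 222 and 134 in Cre. Its window therefore carried the high count of Control replicate 5. In Trim30a a coding window at chr7:104411121-104411369 had 0, 0, 42, 1 and 23 counts in Control, with 187 and 0 in the Cre libraries, while the 3′ UTR region had 96, 152, 233, 47 and 186 against 186 and 154. The high total of Trim30a in Cre replicate 1 thus came from the window, and its 3′ UTR counts there lay within the Control range.

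**Figure D5:**
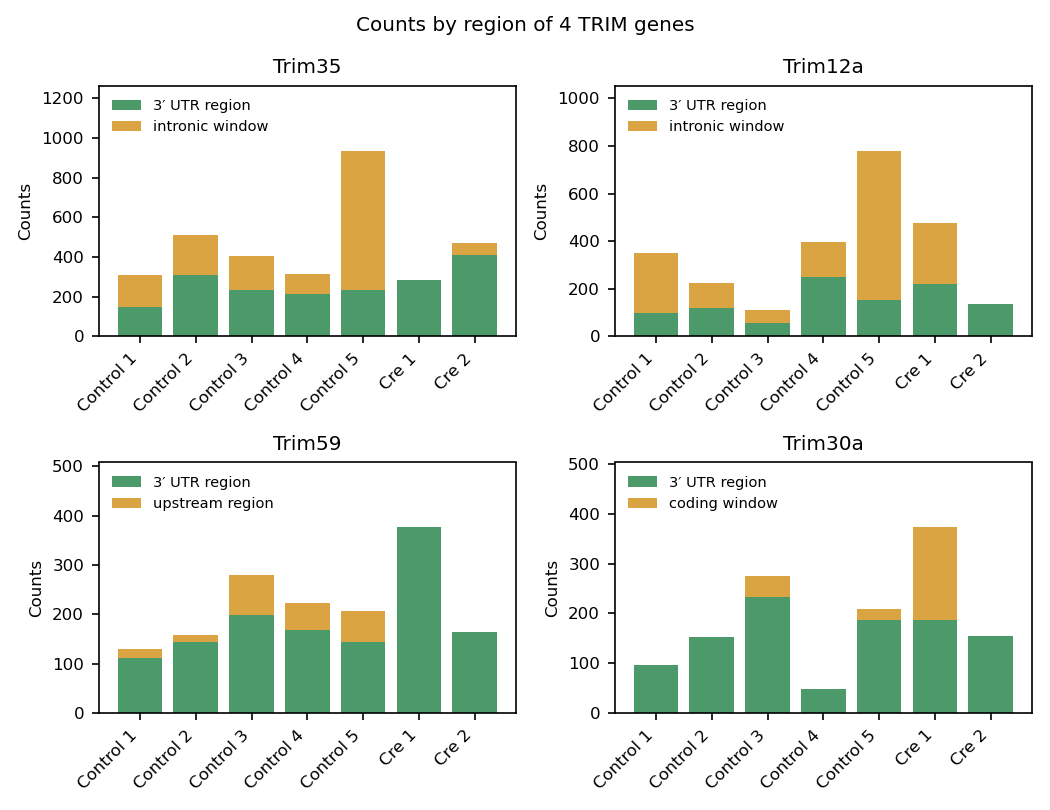
Counts in each library for Trim35, Trim12a, Trim59 and Trim30a, split into the 3′ UTR region (green) and the other main counted region (orange). The orange part of Trim35 is 98 or more in every Control library and 0 and 62 in Cre, and that of Trim59 is 0 in both Cre libraries.

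The remaining tested members were low. Trim8, which acts on SOCS1 in cytokine signalling, had 25, 42, 42, 11 and 52 counts in Control and 11 in each Cre library (-1.66 ± 1.69, edgeR adjusted p = 0.753). Trim41 had 0 to 70 counts in the Control libraries, against 12 and 1 in Cre, and its gene overlaps Rack1 on the other strand, so with the strand of counting not given in the sources used here its reads cannot be assigned with confidence. Trim7 had 7 to 23 counts in Control and 8 in each Cre library. Trim23, which carries an ARF domain, had 10, 17, 26, 0 and 0 counts in Control, Trim2, a neuronal member with NHL repeats, had 13, 0, 0, 40 and 0, and both genes were at 0 in Cre. Some Control libraries were at 0 too, so the groups overlapped for both genes. Without Control replicate 3, Trim23 was at least 4.66-fold lower in Cre against the limit of 3 counts over both Cre libraries, and without Control replicate 4, Trim2 was at least 2.28-fold lower. With all libraries the bound for each was 7.33-fold, with adjusted p-values of 0.431 and 0.458 in edgeR. Trim23 and Trim2 passed the count filter on their Control counts alone.

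A further 16 members had counts but did not pass the count filter, with totals of 1 to 212. The largest of these totals lay mostly in 1 library. The highest total belonged to Trim13, an endoplasmic reticulum ligase, which had 202 of its 212 counts in Cre replicate 2, 10 in Control replicate 1 and none elsewhere. Trim68 had 91 of its 98 counts in Control replicate 2. Trim37, which limits centriole assembly, had 10, 9, 3, 7 and 3 counts in Control and 0 in both Cre libraries. It was at least 4.42-fold lower in Cre against the limit of 3 counts, or 3.83-fold without Control replicate 1, and the authors' deposited table gives it an FDR of 0.176. Trim62 had 30 of its 32 counts in Cre replicate 1, and Trim14 had 16 counts, all in Control.

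Some TRIM proteins carry other symbols. Pml (TRIM19), the organiser of nuclear bodies, had 49, 75, 50, 78 and 80 counts across Control and 100 and 137 across Cre. Both Cre libraries, at 51.8 and 94.5 CPM, lay above the highest Control library at 50.5 CPM (0.84 ± 0.94, edgeR adjusted p = 0.787). Mid1, Mid2 and Mefv had no count in any library.

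TRIM ligases work with E2 enzymes and on sensing pathways, whose genes were listed by role. Of 22 genes of RNA and DNA sensing, 18 were tested and 0 passed edgeR in either direction, while 2 lower and 0 higher had an unadjusted p under 0.05 (all genes, 10.2% and 1.41%). In the fit 7 were fitted lower and 11 higher, with a median log2 difference of 0.10. DESeq2 called 2 of them lower, Ddx58 and Traf6, beside 7.23% of all genes, so the list's counts were near the background. Ddx58, which encodes RIG-I, had 110, 111, 152, 130 and 95 counts in Control, with 5 and 2 in the Cre libraries. All Control libraries lay far above both Cre libraries (-5.13 ± 1.29, edgeR adjusted p = 0.305, DESeq2 adjusted p = 4.45e-05). Traf6, a ligase downstream of Toll-like receptors, had 32, 85, 6, 0 and 130 counts in Control and 0 in Cre, with an overlap at 0 (edgeR adjusted p = 0.422, DESeq2 adjusted p = 0.021). Rnf135, a further RIG-I ligase, had 15, 36, 0, 0 and 42 counts and Ifih1, which encodes MDA5, had 6, 28, 59, 0 and 0, both with 0 in Cre (edgeR adjusted p = 0.429 for each). Ddx58, Traf6, Rnf135 and Ifih1 passed the count filter through their Control counts alone, so their p-values are given as a description.

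Of 22 genes of ubiquitin activation and conjugation, 21 were tested and 0 passed edgeR. At an unadjusted p under 0.05, 4 of the 21 were lower and 1 higher (all genes, 10.2% and 1.41%). Both shares were above those of all genes, and this was not tested. There were 17 fitted lower, 4 higher and a median log2 difference of -1.50, beside 60.1% lower and a median of -0.39 over all tested genes. Their summed level was 2102, 2107, 2571, 2484 and 2322 CPM in the Control libraries, against 1731 and 1087 in Cre, below all of Control. DESeq2 called 2, Ube2e1 and Ube2e3, E2 enzymes of a single subfamily, lower, beside 7.23% of all genes. Ube2e1 had 87, 74, 47, 37 and 97 counts across Control and 2 and 4 across Cre (-4.44 ± 1.68, edgeR adjusted p = 0.422, DESeq2 adjusted p = 0.00637). Ube2e3 had 35, 23, 130, 0 and 51 counts in Control and 0 in Cre (edgeR adjusted p = 0.422, DESeq2 adjusted p = 0.0195), and Ube2a, the partner of Rad18 in DNA repair, had 54, 9, 25, 21 and 1 and then 0 (0.422 and 0.0752). Ube2e1, Ube2e3 and Ube2a, all fitted lower in Cre, passed the count filter through their Control counts alone, so their p-values are given as a description. Ube2d1, an E2 that works with many RING ligases, went the other way, with 33, 22, 10, 17 and 52 counts in Control, with 112 and 189 in the Cre libraries. Both its Cre libraries were above all of Control (2.51 ± 1.11, edgeR adjusted p = 0.427, DESeq2 adjusted p = 0.083).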

How the data were processed

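CD4 T cells were sorted from lung tumours and sequenced as 5 Control and 2 Cre libraries, with groups read from the library titles. Whole-number raw counts per region were deposited, per the file headers, for 116000 regions, 180 of them in the 68 TRIM genes. The build mm10 and the programs FastQC 0.11.8, HISAT2 2.1.0 and DESeq2 are listed by the submitters' processing notes; which tool counted the reads, with what annotation and strand setting, is not given in the sources used here. Besides counts, the authors' deposited comparison of Cre with Control gives p-values and FDR from DESeq2, a fold as a ratio of normalized values, the same as log2, and GC content as a percent; its linear fold and GC columns were not used.

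Counts were summed per gene and scaled to CPM by library totals. Cre was compared with Control with edgeR 4.0.16 (R 4.3.3) and its two-sided quasi-likelihood test (TMM, robust dispersions, group as the only term), with filterByExpr defaults (minimum count 10, minimum total 15) leaving 9854 genes, and Benjamini-Hochberg adjustment at 0.05. The SE was taken from the F statistic. Alternatives were DESeq2 1.42.0, limma 3.58.1 voom with and without library weights, other scaling factors and filters, each library left out, a replicate block, and other ways of summing regions. The fit per region, the counts of genes found at an equal total, DESeq2 with libraries left out and fold bounds with a Control library left out were added after seeing the data. The script was tested on simulated data.

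GENCODE M21 held 55104 of the genes, 99.4% of them at identical coordinates, and placed the regions against exons; coordinates count from 1. Promoters came from RefSeq. Trim5 and Trim12c each share bases, on their own strand, with regions of small nuclear RNA genes. No library pair agreed within sampling noise. Replicate numbers did not pair the libraries: the correlations between Control and Cre libraries of deviations from group means were within 0.00479 of 0.

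Members and gene lists were chosen with earlier results of these data known. Values per library are given for tested members with a Control mean of at least 50 CPM or for which the Control range held neither Cre library; others are given by range or count, some per library, chosen after their values were seen; untested members by total, up to 5; and up to 4 genes per other list by smallest p.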

Additional observations from a re-analysis of the deposited data

Results flagged for a closer look

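Among 28 sets of 5 Control values examined for a library far from the rest, 4 had a gap between the highest library and its nearest neighbour, divided by the whole range, above 0.71, the limit for 5 libraries; chance passes this limit in about 1 in 20 such sets. Trim7 reached 13.6 CPM in Control replicate 1, with the next library at 6.74 CPM (gap over range 0.739). Trim25 reached 262.9 CPM in Control replicate 5, against 116 CPM in the next (0.772). The summed TRIM level was 2952 CPM in that same library, against 1840 CPM (0.812), and 2518 against 1514 CPM without Trim56 (0.854).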

How the results depend on the processing

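The count of genes past the threshold by edgeR (0 higher, 1 lower in Cre) became 15 and 28 with no filter, 35 and 607 by DESeq2, 3 and 0 by limma voom, and 0 lower with library weights; the replicate block gave 5 lower, and leaving out each library gave 0 to 17 higher and 1 to 202 lower, the highest of both without Cre replicate 1 and 1 higher without Cre replicate 2. TRIM genes past it with Trim56 counted, 1 by edgeR, were 3 by DESeq2, 0 by voom with or without weights, and 1 to 2 with a library left out, Trim25 being the second without Cre replicate 1; by DESeq2 they were 3 to 9, the 9 also without Cre replicate 1. Each of these TRIM counts above 0 includes Trim56, whose difference led to the choice of the family, so nothing is read from its call. Without Trim56 and with all libraries, 0 of the other 24 tested members passed by edgeR and 2 by DESeq2. Trim56 stayed between -7.26 and -6.25 over its alternatives, at -6.63 in voom and -6.65 with weights, given as a description. The log2 difference of the summed TRIM counts, with Trim56 in the sum, was -0.58. It ran from -1.13 (without Cre replicate 1) to -0.18 (without Cre replicate 2). Taking Trim56 out of the sum gave -0.32 with all libraries, so part of the -0.58 came from Trim56. Of 390 alternative values of the other 24 members, 356 kept direction and side of the threshold, 3 newly passed and 31, in 11 members, changed sign; the cause was not tested. Leaving out a library moved Trim25 between -10.66 and 0.58, Trim27 between -0.34 and 0.80, Trim35 between -0.99 and 0.12, Trim39 between -8.27 and 1.03, Trim44 between -8.09 and 0.67, Trim59 between -0.09 and 0.73, Trim28 between -8.45 and 2.29, Trim21 between -7.64 and 0.95, Trim5 between -5.56 and 1.55, Trim12a between -1.27 and 0.18, and Trim30d between -6.60 and 1.83. The replicate block reversed Trim39 (-2.11), Trim28 (-1.41), Trim5 (-1.63) and Trim30d (-1.46), although the labels do not say that the numbers pair the libraries. Voom reversed Trim39 (-1.20; -0.79 with weights), Trim28 (-1.85; -1.41) and Trim5 (-1.03; -0.77). Upper-quartile factors gave -0.10 for Trim39, no filter gave 0.04 for Trim21, and the most counted region alone gave 0.58 for Trim35. A fit without a Cre library assumes that the lone one varies like Control. A count of 0 in both Cre libraries allows up to 0.888 CPM, so levels under it cannot be told from none.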
